A study of Homo sapiens with 17 samples.

Results

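The 10 genes described here, EGR1, EGR2, EGR3, IER2, IER5, KLF4, KLF5, KLF6, KLF10 and MYC, were taken by symbol from the 58870 entries of a gene-level count table, and each symbol matched 1 entry. They were followed in MDA-MB-231, an established human breast cancer cell line whose label reads Mesenchymal Basal B. The cells were given 45 nM of TRAIL, the death receptor ligand of the TNF superfamily, a dose the labels call suboptimal, and RNA was taken after 0, 1, 3, 6, 12 and 24 h. The 6 groups differ in time alone: 3 libraries were analysed at each of 0, 3, 6, 12 and 24 h and 2 at 1 h. All of them, the 0 h libraries included, carry the label TRAIL treated, and 0 libraries are labelled as kept without TRAIL to a later time, so the time with TRAIL and the time in culture cannot be told apart. The cells are 1 cell line, and the labels do not say whether the triplicates were separate cultures. P-values then measure the spread between these libraries, which may be technical.

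Immediate-early genes are transcribed within minutes of a signal without new protein synthesis, since the factors that switch them on, such as SRF with its ETS-family partners and CREB, already sit at their promoters and are phosphorylated by ERK, p38 and their downstream kinases. EGR proteins are zinc finger factors that bind GC-rich sites. KLF proteins are zinc finger factors of the Krüppel-like family that bind GC-rich and CACCC elements. IER2 and IER5 are small nuclear regulators, and MYC is the growth-promoting factor that pairs with MAX on E boxes. Their mRNAs are short-lived, and cells exposed to TNF-family ligands, serum or stress are known to induce several of them in pulses.

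Total counts ran from 13731520 to 19234924 per library, and the common biological coefficient of variation was 7.06%. VIM, a mesenchymal intermediate filament gene, stood at 3360 CPM (counts set relative to library totals after TMM scaling) at 0 h and CDH1, encoding E-cadherin, at 0.477 CPM. ESR1 and PGR, the oestrogen and progesterone receptor genes, had at most 2 and 1 counts in any library, and the leukocyte marker PTPRC at most 5. Other luminal and epithelial markers were present, with ERBB2 at 64.5 CPM and EPCAM at 17.8 CPM at 0 h. GATA3, a further marker of that kind, had up to 213 counts in a library. Of the markers of other cell types, COL1A1 stood at 9.05, ACTA2 at 3.28 and PECAM1 at 1.43 CPM at 0 h. Replicates 2 and 3 at 6 h and at 24 h were closer to each other than other pairs (chi-square per gene 1.52 and 1.69, against 4.09 to 16.1). Values of the 10 genes that rest on them are therefore also given with each such pair averaged where that changed a call. The share of counts from mitochondrial genes was 5.53% to 8.37% at 0 h, 7.65% and 9.71% at 1 h and 7.99% to 8.97% at 3 h. It was 3.97% to 5.45% at 6 h, 5.01% to 6.8% at 12 h and 3.66% to 4.14% at 24 h. Its part in the results below was not tested. In bulk RNA, fewer cells with a transcript and less of it per cell cannot be told apart.

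EGR1, IER2, IER5, KLF6 and KLF10 were higher at 3 h, at 6 h or at both, KLF5 was lower at 3 h, and EGR1, IER5 and MYC were lower by 24 h. The changes were small: of those called against 0 h, 1 reached 2-fold, that of EGR1 at 24 h. In what follows a gene counts as called where edgeR's quasi-likelihood test, with Benjamini-Hochberg adjustment across the 15365 genes tested, gave an adjusted p below 0.05. Statements that libraries lay above or below the 0 h range are descriptions and carry no test. The share of all genes separated in that way was not computed, and many uncalled values showed it too. At 1 h, 0 of the 10 genes were called, where 0.312% of all genes tested were (0.26% higher and 0.0521% lower). At 3 h, IER2, IER5 and KLF6 were higher than at 0 h and KLF5 was lower, beside 17.7% of all genes called (9.04% higher, 8.71% lower). At 6 h, EGR1, IER2, KLF4, KLF6 and KLF10 were higher and 0 were lower, beside 30.1% of all genes (16.9% higher, 13.2% lower). At 12 h, 0 were higher and IER5, KLF5 and MYC were lower, beside 12.4% (5.96% higher, 6.48% lower). At 24 h, 0 were higher and EGR1, IER5 and MYC were lower, beside 35.1% (18% higher, 17.1% lower). Over all 6 times together, the F-test called all 8 genes other than EGR2 and EGR3, as it did 64.2% of all genes, so that count does not set them apart. EGR2 and EGR3 also passed it, but they were tested only because of their high counts at 1 h.

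Steps between neighbouring times were called for 2, 4, 6 and 2 of the 10 genes in turn. From 1 h to 3 h, IER2 went up and KLF5 down, where 5.73% of all genes were called (3.17% higher, 2.56% lower). From 3 h to 6 h, KLF5, KLF6 and KLF10 went up and IER5 down, where 43.2% of all genes were called (22.9% higher, 20.3% lower). From 6 h to 12 h, 6 went down, EGR1, IER2, KLF4, KLF6, KLF10 and MYC, and 0 up, where 20.6% of all genes were called (8.7% higher, 11.9% lower). From 12 h to 24 h, EGR1 and MYC went down and 0 up, where 12% of all genes were called (6.42% higher, 5.6% lower).

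EGR2 and EGR3 were rare, with at most 17 and 15 counts in any library, and passed the filter on low counts only through the 1 h libraries, where they are high. The other 8 genes had at least 213 counts in every library. For these 8, the 1, 3, 6, 12 and 24 h medians of the log2 fold change from 0 h were 0.14, 0.24, 0.28, -0.03 and -0.22. The medians over all genes tested were -0.0041, -0.0041, -0.022, -0.0032 and -0.0018 in the same order. At 1 h all 8 values were above 0, from 0.08 for KLF5 to 0.29 for EGR1, but KLF5 was at -0.045 without 1 h replicate 1. The 8 values share the same 0 h and 1 h libraries and are a description. The share of all genes above 0 was not computed. Of these 8, IER5, KLF10 and MYC had an unadjusted p below 0.05 at 1 h. Their p-values ranked 214, 181 and 572 among the 15365 genes tested, and their adjusted p was 0.544 or more. DESeq2 and limma-voom also called 0 of the 10 at 1 h.

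**Figure D1:**
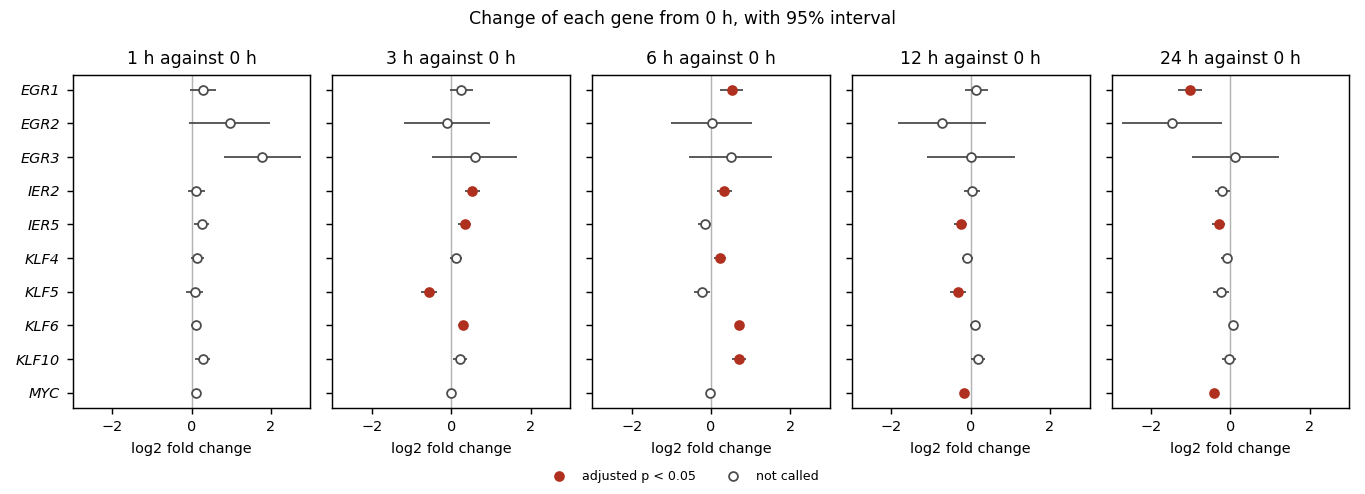
Log2 fold change of each of the 10 genes against 0 h (horizontal axis) at 1, 3, 6, 12 and 24 h, with 95% intervals; filled points have an adjusted p below 0.05 and open points do not. KLF6 and KLF10 reach 0.71 at 6 h, EGR1 lies at -1.02 at 24 h, and the widest intervals are those of the rare EGR2 and EGR3.

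Levels were compared per kb of merged exon length, which takes in all annotated exons and need not be the length of the transcript present. On that scale MYC had the highest mean level at 0 h, 57.7 CPM per kb. IER5 followed at 43.3, IER2 at 32.3 and KLF6 at 28.5 CPM per kb. KLF10 stood at 15.6, EGR1 at 11, KLF4 at 8.22 and KLF5 at 7.30 CPM per kb. The SDs of neighbours in that order were small (0.442 for MYC, 3.02 for IER5, 1.20 for IER2, 0.872 for KLF6), except that KLF4 and KLF5 (SDs of 0.19 and 0.513) lay closest. EGR2 and EGR3 were lowest, at 0.129 ± 0.00977 and 0.047 ± 0.0267 CPM per kb (SD, n = 3). These levels describe 0 h and carry no test between genes, and the SDs do not cover the choice of length.

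**Figure D2:**
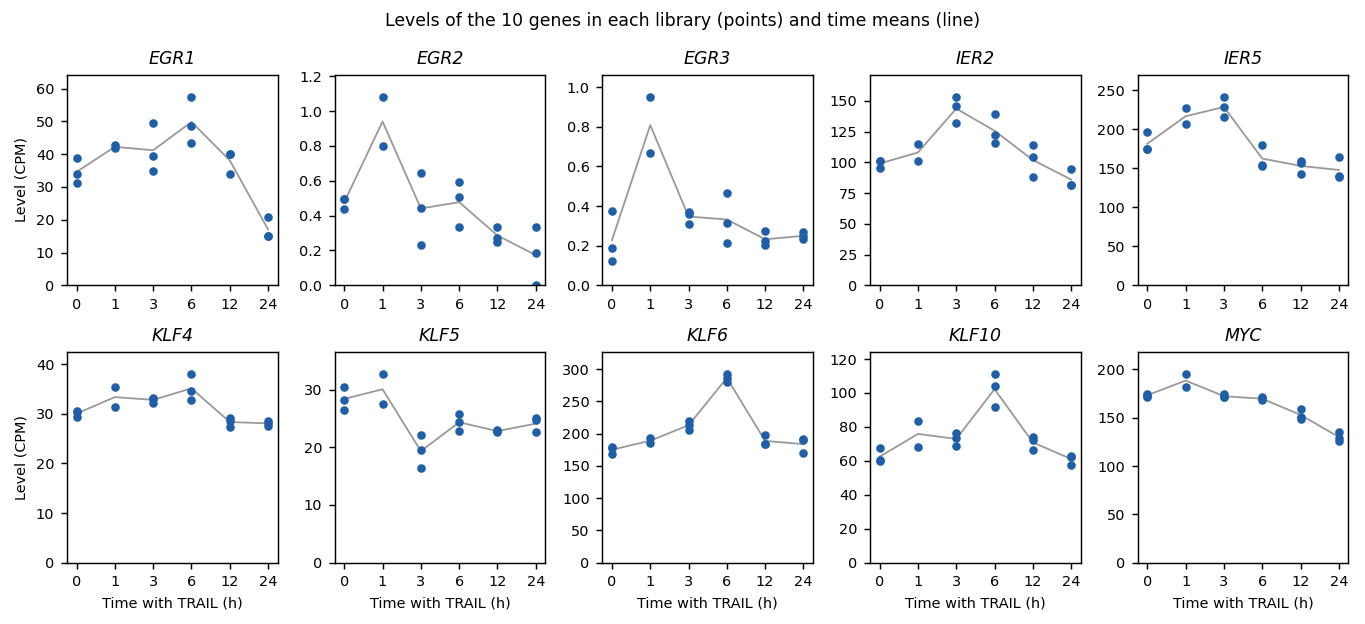
Level in CPM (vertical axis, from 0, with its own scale for each gene) of the 10 genes against time with TRAIL in hours; points are libraries and the line joins the time means. KLF6 and KLF10 peak at 6 h, IER5 is highest at 3 h, KLF5 is lowest at 3 h, and EGR1 and MYC are lowest at 24 h.

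The promoters of the EGR genes are the textbook sites where SRF and CREB act, so the 250 bases before the annotated start were read for motifs. RefSeq windows (GRCh38.p14) were found for 7 of the 10 genes, 10 windows in all, with several starts for EGR2 and KLF5. Those shown are EGR1 and EGR2, which hold the CArG box bound by SRF, and IER2 and KLF6, which were called at 3 h and 6 h. Capitals mark CArG boxes, CRE cores (TGACG or its complement CGTCA), the ETS core (CCGGAA or TTCCGG) and EGR sites (GCGGGGGCG), 5′ to 3′ on the gene's strand. The windows are chr5:138465229-138465478 on the plus strand for EGR1, chr10:62816367-62816616 on the minus strand for EGR2, chr19:13150161-13150410 on the plus strand for IER2 and chr10:3785210-3785459 on the minus strand for KLF6.
EGR1: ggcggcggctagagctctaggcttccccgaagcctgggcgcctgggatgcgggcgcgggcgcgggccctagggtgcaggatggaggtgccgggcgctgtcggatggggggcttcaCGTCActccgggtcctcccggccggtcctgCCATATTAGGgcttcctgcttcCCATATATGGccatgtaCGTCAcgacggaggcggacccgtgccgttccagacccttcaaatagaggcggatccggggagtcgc
EGR2: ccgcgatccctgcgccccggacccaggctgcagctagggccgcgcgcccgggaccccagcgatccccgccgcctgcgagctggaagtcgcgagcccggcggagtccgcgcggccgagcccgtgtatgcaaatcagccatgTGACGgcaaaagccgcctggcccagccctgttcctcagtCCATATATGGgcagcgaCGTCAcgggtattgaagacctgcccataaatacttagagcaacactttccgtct
IER2: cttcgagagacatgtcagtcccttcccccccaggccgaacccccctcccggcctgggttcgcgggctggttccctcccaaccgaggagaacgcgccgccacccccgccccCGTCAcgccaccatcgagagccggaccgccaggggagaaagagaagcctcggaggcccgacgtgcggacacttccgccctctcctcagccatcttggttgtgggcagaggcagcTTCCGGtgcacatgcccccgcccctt
KLF6: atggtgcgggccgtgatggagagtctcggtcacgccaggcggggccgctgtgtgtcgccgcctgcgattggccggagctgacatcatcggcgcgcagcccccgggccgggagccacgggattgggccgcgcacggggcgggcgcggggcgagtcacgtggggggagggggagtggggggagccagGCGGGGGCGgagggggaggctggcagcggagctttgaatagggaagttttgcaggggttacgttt

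EGR1 held 2 CArG boxes, from -105 to -96 and from -83 to -74 relative to the start, and the EGR2 window 1, from -71 to -62. A CArG box was found in 1.16% of the 35116 windows of that length in the RefSeq table, searched on both strands. CRE cores lay at -135 to -131 and -66 to -62 in EGR1, at -110 to -106 and -54 to -50 in EGR2 and at -140 to -136 in IER2, with others in KLF4 and 1 KLF5 window. TGACG alone occurs in 21.2% of all windows, so it is common, and the full CRE (TGACGTCA, which holds the core on each strand) was in 0 of the 10 windows and in 1.65% of all. The ETS core lay at -26 to -21 in IER2 and at -74 to -69 in IER5, and occurs in 14.5% of all windows. KLF6 held the EGR site GCGGGGGCG from -65 to -57, which 4.72% of all windows hold, and an E box (CACGTG, 6.34% of all windows) from -97 to -92. E boxes also lay in the windows of KLF4 and of another EGR2 start. TATAAA, held by 10.7% of all windows, was in 1 KLF5 window, and the other EGR site searched, GCGTGGGCG (0.72% of all windows), was in 0 of the 10. Matches to the AP-1 site (TGANTCA, 6.57% of all windows) were in 0 of the 10, the NF-κB site (9.96% of all) was in 1, and the GC box (GGGGCGGGG, 15.1% of all) in 5. These are letter matches, and binding was not measured.

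**Figure D3:**
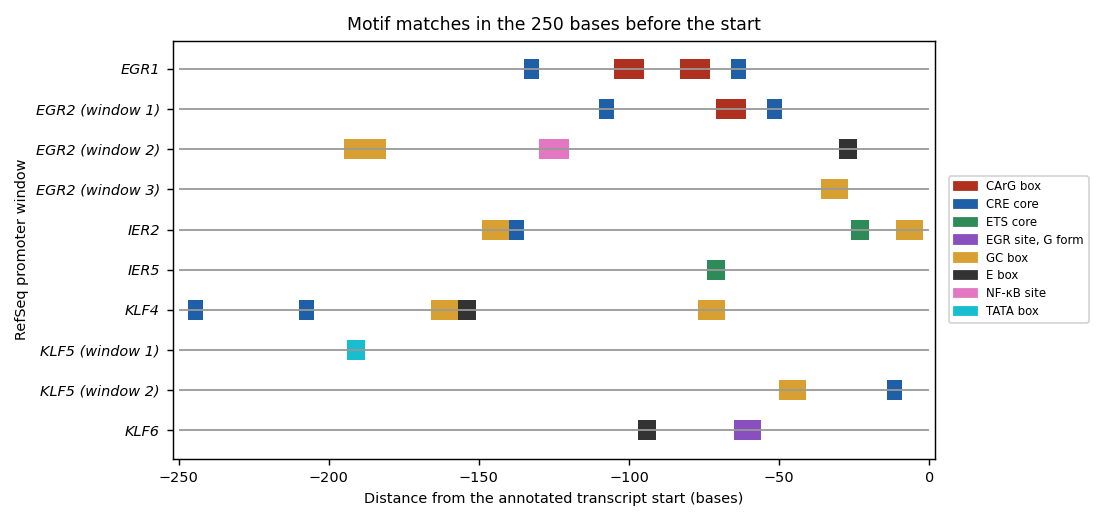
Positions of motif matches (coloured boxes) in the 250 bases before the annotated start of the 10 RefSeq windows of 7 genes; the horizontal axis is the distance from the start in bases. CArG boxes appear in EGR1 and in 1 EGR2 window and in none of the other windows drawn.

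EGR1 (ENSG00000120738, chr5:138465490-138469315, plus strand), a zinc finger factor that turns growth and stress signals into transcription, was higher at 6 h and lower at 24 h than at the start. It measured 33.9, 31.1 and 38.8 CPM at 0 h, 41.8 and 42.7 at 1 h, then 49.5, 39.3 and 34.8 at 3 h. It measured 57.4, 48.6 and 43.5 CPM at 6 h, 40.2, 34.0 and 40.1 at 12 h, then 20.7, 15.2 and 15.2 at 24 h. Every 6 h library lay above, and every 24 h library below, the range at 0 h, while the 3 h and 12 h libraries overlapped it. Relative to 0 h its log2 fold change reached 0.52 at 6 h (SE 0.135, adjusted p = 0.00853) and -1.02 at 24 h (95% interval -1.33 to -0.71, adjusted p = 0.000108). From 12 h to 24 h it dropped by 1.15 on the log2 scale (SE 0.146, adjusted p = 0.000186). The values at 1 h and 3 h, 0.29 and 0.25, did not pass (adjusted p = 0.987 and 0.222). Between 6 h and 12 h the change was -0.39 (adjusted p = 0.049), and that call was lost in 16 of 31 alternative analyses, with each of the 3 libraries at 12 h and replicates 1 and 2 at 6 h left out in turn among them (-0.27 without 6 h replicate 1, adjusted p = 0.173). It was also lost with the near-identical 6 h pair averaged (-0.43, adjusted p = 0.073).

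EGR2 (ENSG00000122877, chr10:62811996-62919900, minus strand), a factor of myelinating and lymphoid cells, had 8, 8 and 7 counts at 0 h and 17 and 12 at 1 h. It had 6, 3 and 9 counts at 3 h, 8, 5 and 11 at 6 h, 4, 5 and 6 at 12 h, then 0, 3 and 5 at 24 h. EGR3 (ENSG00000179388, chr8:22687659-22693302, minus strand), a close relative that EGR1-type signals also induce, had 2, 3 and 6 counts at 0 h and 15 and 10 at 1 h. Its later libraries had 5, 4 and 5 counts at 3 h, 5, 7 and 4 at 6 h, and 4 in every library at 12 h and 24 h. AC055854.1, on the opposite strand, overlaps 164 bases of EGR3's exons and had at most 3 counts in any library. For both genes the 1 h libraries, which alone brought them past the filter, were the highest, so their values at 1 h are a description and support nothing. At 1 h, changes of 0.97 (95% interval -0.06 to 1.99, adjusted p = 0.969) for EGR2 and of 1.79 (95% interval 0.82 to 2.77, adjusted p = 0.173) for EGR3 on the log2 scale were not called. For EGR3 the adjusted p lay between 0.0949 and 0.913 over the alternatives. At 24 h EGR2 was also below its 0 h range, at -1.47 (adjusted p = 0.0583), a value that limma-voom called (-1.98, adjusted p = 0.0203).

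IER2 (ENSG00000160888, chr19:13150415-13154908, plus strand), a nuclear regulator known from growth factor responses, was highest at 3 h. It measured 101, 101 and 95 CPM at 0 h, 101 and 115 at 1 h, then 146, 153 and 132 at 3 h. It measured 139, 122 and 116 CPM at 6 h, 104, 87.7 and 114 at 12 h, then 94.3, 81.9 and 81.7 at 24 h. The 3 h and 6 h libraries all lay above those at 0 h, the 1 h and 12 h libraries overlapped them, and the 24 h libraries lay just below. On the log2 scale IER2 stood 0.53 above 0 h at 3 h (SE 0.092, adjusted p = 0.000697) and 0.34 at 6 h (SE 0.0917, adjusted p = 0.00998), with -0.21 at 24 h (adjusted p = 0.0911). From 1 h to 3 h it rose by 0.41 (adjusted p = 0.0234). That call was lost without 1 h replicate 1 (0.32, adjusted p = 0.319) and without 3 h replicate 1 or 2. From 6 h to 12 h it fell by 0.31 on the log2 scale (adjusted p = 0.024), but not past the threshold without 6 h replicate 1, 12 h replicate 1 or 12 h replicate 2 (adjusted p = 0.0977, 0.0505 and 0.113), with upper-quartile scaling (adjusted p = 0.0909) or in a fit of those 2 times alone (adjusted p = 0.0698). The antisense gene AC011446.2 overlaps 946 bases of its exons and had at most 2.05 counts in any library.

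IER5 (ENSG00000162783, chr1:181088712-181092899, plus strand), a regulator of heat shock factor 1, rose early and then dropped to below its starting level. It measured 196, 174 and 174 CPM at 0 h, 206 and 227 at 1 h, then 228, 241 and 216 at 3 h. It measured 180, 154 and 153 CPM at 6 h, 159, 143 and 157 at 12 h, then 164, 139 and 140 at 24 h. The 1 h and 3 h libraries all exceeded the 0 h range and the 12 h and 24 h libraries all lay below it. Its log2 fold change was 0.26 at 1 h (adjusted p = 0.58), 0.34 at 3 h (SE 0.0786, adjusted p = 0.0066) and -0.30 at 24 h (SE 0.079, adjusted p = 0.0069). The drop came between 3 h and 6 h, by 0.49 on the log2 scale (SE 0.0788, adjusted p = 0.000126). The value of -0.25 at 12 h (adjusted p = 0.0456) was lost in 14 of 31 alternatives, the removal of each library at 0 h and at 12 h among them, with adjusted p from 0.011 to 0.205 over all of them. At 6 h, when IER2 was still above 0 h, IER5 was at -0.16 (adjusted p = 0.132), and the difference between the genes was not tested.

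KLF6 (ENSG00000067082, chr10:3775996-3785281, minus strand), a widely expressed factor known as a growth restraint in several cancers, rose to a peak at 6 h and was back near its starting level by 12 h. It measured 179, 169 and 177 CPM at 0 h, 193 and 185 at 1 h, then 213, 206 and 220 at 3 h. It measured 280, 287 and 292 CPM at 6 h, 184, 198 and 184 at 12 h, then 170, 191 and 190 at 24 h. The 6 h libraries were the 3 highest of all, the 1 h, 3 h and 12 h libraries lay above the 0 h range, and the 24 h libraries overlapped it. Its values at 1 h and 12 h were not called (adjusted p = 0.987 and 0.206). Its log2 change came to 0.29 at 3 h (SE 0.0559, adjusted p = 0.00177) and 0.71 at 6 h (SE 0.0557, adjusted p = 3.8e-08), which is 1.64-fold. Between 3 h and 6 h it rose by 0.43 (adjusted p = 2.47e-05), and it fell by 0.60 on the log2 scale from 6 h to 12 h (adjusted p = 5.11e-07). These 4 calls held in all 31 alternatives.

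KLF10 (ENSG00000155090, chr8:102648779-102655902, minus strand), also known as TIEG, an early target of TGF-beta, followed nearly the same course. It measured 59.6, 60.2 and 67.4 CPM at 0 h, 83.7 and 68.0 at 1 h, then 76.5, 68.6 and 73.6 at 3 h. It measured 91.8, 104 and 111 CPM at 6 h, 66.5, 74.0 and 72.0 at 12 h, then 57.8, 63.0 and 62.4 at 24 h. All libraries at 1, 3 and 6 h lay above the 0 h range, by little at 1 h replicate 2 and 3 h replicate 2, and those at 12 h and 24 h overlapped it. At 6 h the log2 fold change was 0.71 (SE 0.0824, adjusted p = 6.26e-06), after a rise of 0.49 from 3 h (adjusted p = 0.00018), and by 12 h it had fallen by 0.53 on the log2 scale (adjusted p = 0.000172). The values at 1 h and 3 h, 0.28 and 0.23, were not called (adjusted p = 0.544 and 0.0688). Across the 5 log2 fold changes against 0 h, which share the 0 h libraries, KLF6 and KLF10 lay closer than any other pair of the 10, with a root mean square difference of 0.0984.

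KLF4 (ENSG00000136826, chr9:107484852-107490482, minus strand), a differentiation and pluripotency factor, changed least from 0 h among the 4 KLF genes, by at most 0.23 on the log2 scale. It measured 30.3, 30.6 and 29.3 CPM at 0 h, 35.5 and 31.3 at 1 h, then 33.2, 32.3 and 33 at 3 h. It measured 32.8, 34.7 and 38.0 CPM at 6 h, 28.6, 29.1 and 27.4 at 12 h, then 28.1, 27.6 and 28.6 at 24 h. The libraries at 1, 3 and 6 h lay above the 0 h range and those at 12 h and 24 h below it, all by small amounts. Its values at 1, 3, 12 and 24 h were not called (adjusted p = 0.984, 0.231, 0.467 and 0.287). The log2 fold change at 6 h was 0.23 (SE 0.0698, adjusted p = 0.0197), and it was not called without 6 h replicate 3 (0.17, adjusted p = 0.137), without 0 h replicate 3 (adjusted p = 0.0606) or with the near-identical 6 h pair averaged (0.19, adjusted p = 0.102). Upper-quartile scaling, and a fit to unfiltered genes, also ended that call (adjusted p = 0.0819 and 0.0646). From 6 h to 12 h KLF4 fell by 0.31 on the log2 scale (SE 0.0697, adjusted p = 0.0038), and this call held in all 31 alternatives.

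KLF5 (ENSG00000102554, chr13:73054976-73077542, plus strand), which promotes proliferation of epithelial cells, went the other way. It measured 26.5, 28.3 and 30.5 CPM at 0 h, 32.7 and 27.5 at 1 h, then 22.1, 16.5 and 19.5 at 3 h. It measured 22.8, 25.8 and 24.5 CPM at 6 h, 22.6, 23.1 and 22.8 at 12 h, then 22.6, 24.7 and 25.1 at 24 h. All libraries from 3 h on lay below the lowest at 0 h, and the 3 h libraries were the lowest. The log2 fold change was -0.55 at 3 h (SE 0.0973, adjusted p = 0.000697), then -0.22 at 6 h (adjusted p = 0.0776), -0.32 at 12 h (adjusted p = 0.0319) and -0.24 at 24 h (adjusted p = 0.0548). From 1 h to 3 h it fell by 0.63 on the log2 scale (adjusted p = 0.00101), or -0.51 without 1 h replicate 1 (adjusted p = 0.053). The partial return from 3 h to 6 h was 0.33 (adjusted p = 0.0108), and 0.30 with the 6 h pair averaged (adjusted p = 0.0513). It was 0.23 without 3 h replicate 2 (adjusted p = 0.083) and 0.29 without 6 h replicate 2 (adjusted p = 0.0503). The 12 h call was lost when any 12 h library, or 0 h replicate 2 or 3, was left out (adjusted p from 0.0655 to 0.0984), and with library size alone (adjusted p = 0.0754).

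MYC (ENSG00000136997, chr8:127735434-127741434, plus strand), which drives ribosome production and cell growth, stayed near its starting level to 6 h and then declined. It measured 172, 175 and 173 CPM at 0 h, 195 and 182 at 1 h, then 175, 171 and 171 at 3 h. It measured 171, 170 and 168 CPM at 6 h, 151, 149 and 159 at 12 h, then 135, 126 and 129 at 24 h. Both 1 h libraries lay above the narrow range at 0 h, those at 3 h overlapped it, those at 6 h lay just below, and those at 12 h and 24 h were clear of it on the low side. The log2 fold change was 0.12 at 1 h (adjusted p = 0.941), -0.01 at 3 h (95% interval -0.11 to 0.09) and -0.03 at 6 h (95% interval -0.13 to 0.07). It was -0.18 at 12 h (SE 0.0486, adjusted p = 0.0201) and -0.41 at 24 h (SE 0.0489, adjusted p = 7.61e-06). From 12 h to 24 h MYC fell by 0.23 on the log2 scale (SE 0.0489, adjusted p = 0.00531), in all 31 alternatives. The 12 h call was lost without 0 h replicate 2 (-0.17, adjusted p = 0.0604) or 12 h replicate 2 (-0.16, adjusted p = 0.1), with library size alone (adjusted p = 0.0635) and with no filter on low counts (adjusted p = 0.118). The change from 6 h to 12 h, -0.15 (adjusted p = 0.0319), was lost in 10 alternatives, among them the removal of any 6 h library and of 12 h replicate 1 or 2, and was -0.08 with upper-quartile scaling (adjusted p = 0.254). With the near-identical 6 h pair averaged it was -0.15 (adjusted p = 0.104).

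EGR1 was the gene called with a change of at least 2-fold against 0 h, so a like pattern was sought for it among 11349 genes whose average log2 CPM was 2 or more. METRNL, by its 5 log2 fold changes, lay nearest (root mean square difference 0.216). METRNL had log2 fold changes of 0.20, 0.40, 0.09, 0.06 and -0.92 at 1, 3, 6, 12 and 24 h. Those of EGR1 were 0.29, 0.25, 0.52, 0.14 and -1.02, and the genes differed most at 6 h. All such values share the 0 h libraries and are a description.

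Of 17 other immediate-early genes, 9 were called higher at 1 h and 1 lower, where 0.26% of all genes were called higher. ATF3, a stress-induced factor, rose by 1.15 (SE 0.11, adjusted p = 3.81e-06), and GADD45B, a stress-signalling regulator, by 1.08 (SE 0.0907, adjusted p = 1.38e-06). NR4A1, an orphan nuclear receptor, rose by 1.15 (adjusted p = 0.00454), a call lost when either 1 h library was left out. FOS, the AP-1 subunit, was lower, at -0.95 (adjusted p = 0.0027), and this call was lost without 1 h replicate 1. At 3 h, 13 were higher and 2 lower, where 9.04% of all genes were called higher and 8.71% lower. JUNB was at 1.75 and FOS at -1.85. The 13 include NR4A3, with at most 12 counts in any library and 0.743 CPM at 3 h, against 0.249 CPM at 0 h. The 3 h libraries, where it is high, brought it past the filter on low counts, so its value there is a description. Its call was lost in 5 of 26 alternatives. The counts were 8 higher and 3 lower at 6 h, then 3 against 7 at 12 h, and finally 3 against 9 at 24 h, with GADD45B at -1.01, FOS at -1.05 and FOSB at -1.71. Of all genes, 16.9%, 5.96% and 18% were called higher at 6, 12 and 24 h, and 13.2%, 6.48% and 17.1% lower. The list's median log2 fold change was 0.48, 0.68, 0.39, -0.12 and -0.45 at 1, 3, 6, 12 and 24 h, against 0.14, 0.24, 0.28, -0.03 and -0.22 for the 8 genes above. Rare genes were left out of the 8 but not of the list. In it NR4A3, BTG2, NR4A1 and NR4A2 had at most 12, 51, 54 and 58 counts in any library. The 24 h count of 3 higher was 1 without 24 h replicate 2 and 5 with length and GC offsets.

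**Figure D4:**
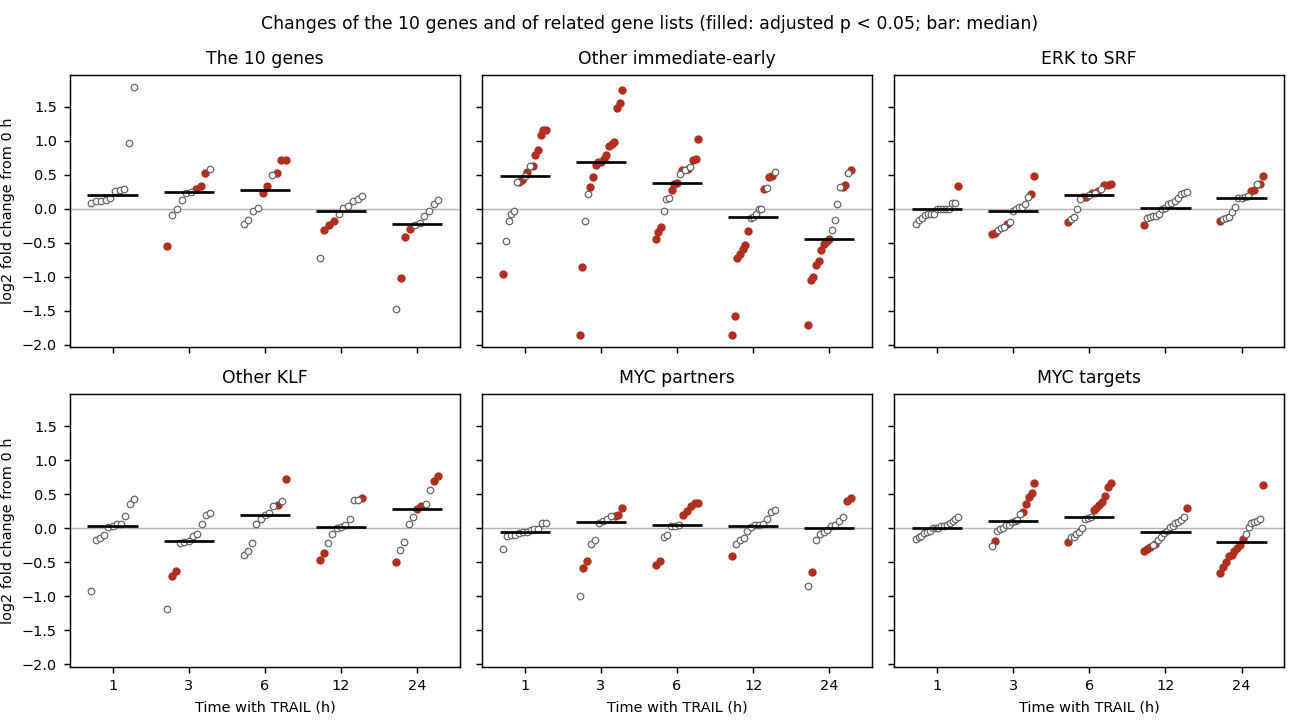
Log2 fold changes against 0 h (vertical axis) of the 10 genes and of related gene lists at 1, 3, 6, 12 and 24 h; each point is a gene, filled points have an adjusted p below 0.05, and the bar is the list median. The other immediate-early genes reach a median of 0.68 at 3 h and the MYC target genes one of -0.20 at 24 h.

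Of the 15 genes from ERK to SRF, SRF itself was the 1 called at 1 h, at 0.34 (SE 0.0549, adjusted p = 0.003), and it stood at 0.47 at 3 h (SE 0.0495, adjusted p = 1.92e-06). At 1 h, 0.312% of all genes were called. SRF lost its 1 h call when either 1 h library was left out. The kinase gene MAP2K1 (-0.35) and the ETS factor gene ELK3 (-0.37) were lower at 3 h. At 6 h, 7 of the 15 were higher and 1 lower, where 16.9% of all genes were called higher and 13.2% lower. The count of 7 was 1 without 6 h replicate 3, 2 with the 6 h and 24 h pairs averaged, 3 with upper-quartile scaling, and 3 to 4 without any 0 h library or 6 h replicate 2. At 12 h, 0 were higher and 1 lower, where 5.96% of all genes were called higher and 6.48% lower. At 24 h, 4 were higher and 1 lower, where 18% and 17.1% of all genes were, with MRTFB, a cofactor of SRF, at 0.48. That count of 4 was 2 with the pairs averaged and without 0 h replicate 1 or 24 h replicate 3, and 8 without 24 h replicate 1. With library size alone it was 7, and 0 were lower.

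The corepressor gene NAB2, whose product binds EGR proteins and which EGR factors themselves are known to induce, was higher at 3, 6, 12 and 24 h. At 6 h it was at 0.61 (SE 0.0808, adjusted p = 2.91e-05), from 15.1 ± 0.751 to 23.1 ± 0.823 CPM (SD, n = 3). Its values of 0.31, 0.25 and 0.22 at 3, 12 and 24 h lost their calls in 5, 20 and 18 of 31 alternatives. NAB1, the related corepressor, was lower at 12 h (-0.32, adjusted p = 0.0197) and 24 h (-0.23, adjusted p = 0.0456). The 12 h call was lost without 0 h replicate 3 or 12 h replicate 3, and the 24 h call in 13 alternatives. EGR4, with at most 12 counts in any library, stood at 0.726 ± 0.0355 CPM at 0 h (SD, n = 3) and 0.621 ± 0.252 CPM at 1 h (SD, n = 2), and these libraries brought it past the filter on low counts. Its means of 0.173, 0.139 and 0.039 CPM at 6, 12 and 24 h, where it was called lower, are therefore given as a description, and it was not tested where genes needed a mean count of 10 or more. IER5L, a paralogue of IER5, was not called against 0 h.

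Among 13 other KLF genes, of which 11 were tested, 0 were called at 1 h, where 0.312% of all genes were. At 3 h, 0 were higher and 2 lower: KLF11, the relative nearest to KLF10, was at -0.63 (SE 0.131, adjusted p = 0.00279), and KLF9 was at -0.70 (adjusted p = 0.0243), a call lost without 0 h replicate 2 or 3 or 3 h replicate 2. At 6 h, 2 were higher and 0 lower, with KLF13 at 0.72 (SE 0.102, adjusted p = 6.18e-05). At 12 h, 1 was higher and 2 lower, and at 24 h, 4 were higher and 1 lower. The shares of all genes called higher were 9.04%, 16.9%, 5.96% and 18% at 3, 6, 12 and 24 h. Those called lower were 8.71%, 13.2%, 6.48% and 17.1% in the same order. KLF9 and KLF13 stood at 0.77 (SE 0.174, adjusted p = 0.00243) and 0.69 (SE 0.103, adjusted p = 8.01e-05) at 24 h. The count of 4 at 24 h was 2 with length and GC offsets, with the pairs averaged, and without 24 h replicate 2 or 3.

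Of 13 genes for MYC's dimerisation partners, antagonists and regulators, 12 were tested, and 3 were higher and 2 lower at 3 h. MNT and MXI1, whose products compete with MYC for MAX, were at -0.59 (SE 0.111, adjusted p = 0.00129) and -0.48 (SE 0.108, adjusted p = 0.00454). The 3 higher became 0 with library size alone, with no filter on low counts and without 0 h replicate 3. At 6 h, 5 were higher and 2 lower, with MXI1 at -0.54, MXD3 at -0.47 and MXD1 at 0.38, and the 5 higher were 2 with upper-quartile scaling, with the pairs averaged and without 0 h replicate 3, and 3 without 6 h replicate 2 or 3 and with length and GC offsets. At 24 h, 2 were higher and 1 lower, with MXD1, another antagonist, at 0.45 and MXD3 at -0.64 (SE 0.112, adjusted p = 0.000356). At 1 h 0 were called, and at 12 h 0 were higher and 1 lower.

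Of 16 genes known as MYC targets, 0 were called at 1 h, where 0.312% of all genes were. At 3 h, 5 were higher and 1 lower, where 9.04% of all genes were called higher and 8.71% lower. At 6 h, 7 were higher and 1 lower, where 16.9% of all genes were called higher and 13.2% lower. The ribosome assembly genes RRS1, NOP16 and PPAN were at 0.66, 0.53 and 0.45 at 3 h, when MYC itself was at -0.01. ODC1, for the first enzyme of polyamine synthesis, was at 0.61 at 6 h (SE 0.0606, adjusted p = 9.6e-07). At 12 h, 1 was higher and 4 lower, where 5.96% of all genes were called higher and 6.48% lower. At 24 h, 1 was higher and 9 lower, where 18% of all genes were called higher and 17.1% lower. The 4 lower at 12 h were 2 without 0 h replicate 1 and 1 without 12 h replicate 2. At 24 h SRM, for spermidine synthase, was at -0.66 (SE 0.083, adjusted p = 1.67e-05), NOP16 at -0.56 and RRS1 at -0.49, and the transferrin receptor gene TFRC was higher, at 0.64 (SE 0.149, adjusted p = 0.00519). The list's median was 0.16 at 6 h, or 0.09 with upper-quartile scaling. At 24 h, when MYC was at -0.41, the median was -0.20, or -0.13 with library size alone and -0.09 with length and GC offsets.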

How the data were processed

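The authors deposited gene-level expected counts, estimated fragments per gene from RSEM per the file name, not scaled to depth or length; cutadapt 1.18, STAR 2.7.0f and hg38 stand in the submitters' processing notes, and the strand setting of the counting is not given in the sources used here. Libraries were stranded mRNA, per the labels' protocols. Expected counts, of which 10.8% were not whole, were rounded. Genes were filtered by filterByExpr and scaled by TMM (factors 0.939 to 1.06). All 17 libraries entered 1 quasi-likelihood fit with robust estimation and a mean per time (edgeR 4.0.16, R 4.3.3). The fit was tried on simulated counts, drawn independently for each library, with known changes at 6 h against 0 h alone. That trial did not cover near-identical libraries or the other comparisons. CPM uses TMM-scaled totals, and CPM per kb divides it by the merged exon length of GENCODE 29. Fold changes carry standard errors from the F statistic and 95% intervals from the t distribution.

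All 10 genes are named, with, per related list, time and direction, at most 3 called genes of largest change; for a gene changed at least 2-fold, the 2 nearest in pattern are named, except that some genes these rules chose are not reported here. The genes and lists were chosen with earlier results of these data known. Alternatives used DESeq2 1.42.0 and limma 3.58.1 among others. Replicate numbers were not used to pair the samples in the main fit. Correlations of same-numbered deviations ran from -0.159 to 0.178, some of them above 0.1, and a fit with the replicate number as a block is given below.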

Additional observations from a re-analysis of the deposited data

How the results depend on the processing

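Over 31 alternatives, 19 of the 29 called values of single genes kept their call in every alternative run, 10 lost it in some and 0 reversed; 67 of 2757 alternative values lost a call and 41 gained one. Counts of the 10 genes called moved by over 1.5 times in these cases, and the causes were not tested. At 12 h against 0 h the 3 became 0 with library size alone and ranged from 0 to 3 when 1 library was left out. At 24 h against 0 h the 3 became 5 in a fit of only the groups compared. At 6 h against 3 h the 4 became 7 with length and GC offsets, with or without the block. At 12 h against 6 h the 6 became 3 with upper-quartile scaling and ranged from 3 to 6 with 1 library left out. At 3 h against 1 h the 2 ranged from 0 to 2 with 1 library left out. The number of all genes called, on which the shares above rest, also moved. With the near-identical pairs averaged it fell from 4627 to 2532 at 6 h and from 5388 to 3464 at 24 h against 0 h. It fell from 3168 to 1670 at 12 h against 6 h and from 1847 to 452 at 24 h against 12 h. Without 12 h replicate 2 it fell from 1911 to 724 at 12 h against 0 h. The fit with the replicate number as a block gave 0, 4, 5, 3 and 3 called at 1, 3, 6, 12 and 24 h against 0 h, as without it, and none of the 29 calls was lost under it; among the named genes of the related lists it ended the calls of NAB2 at 12 h (0.25) and 24 h (0.22) and of NAB1 at 24 h (-0.23).

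Reversed signs were confined to 18 comparisons of single genes that were not called in the main fit, though most of those genes were called in others. EGR2 at 6 h against 0 h was -0.051 with upper-quartile scaling, -0.016 with limma-voom and -0.020 with the replicate block, and from -0.18 to 0.207 with 1 library left out. EGR3 at 12 h was -0.0031 with pairs averaged. With length and GC offsets, without and with the block, MYC was 0.076 and 0.076 at 6 h against 0 h and 0.12 and 0.12 at 6 h against 3 h (adjusted p = 0.0445 and 0.0444), KLF6 -0.0074 and -0.0077 at 24 h, and KLF4 0.018 and 0.018 at 24 h against 12 h. With library size alone, KLF10 at 24 h was 0.044, MYC at 6 h against 3 h 0.050, KLF4 at 24 h against 12 h 0.025 and KLF6 0.0041, and with no filter MYC at 6 h against 3 h was 0.0037. With 1 library left out, values ranged as follows. Against 0 h, KLF5 at 1 h ran from -0.0452 to 0.198, EGR2 at 3 h from -0.473 to 0.193, MYC at 3 h from -0.0156 to 0.000724, EGR3 at 12 h from -0.287 to 0.529, IER2 at 12 h from -0.0552 to 0.131, EGR3 at 24 h from -0.167 to 0.649, and KLF10 at 24 h from -0.0652 to 0.0246. From 1 h to 3 h, EGR1 ran from -0.188 to 0.0751, KLF4 from -0.107 to 0.066 and KLF10 from -0.193 to 0.0962. From 3 h to 6 h, EGR2 ran from -0.178 to 0.489 and EGR3 from -0.392 to 0.16, and from 12 h to 24 h KLF4 ran from -0.0408 to 0.00565 and KLF6 from -0.0661 to 0.0166.

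Depth limits EGR2 and EGR3, with at most 17 and 15 counts in a library. Counts of 1 or 2 called genes in the related lists became 0, 1 or 2 under many alternatives, single libraries left out among them. No scaling alternative moved the median of all genes by over 0.1 on the log2 scale.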
